A study of Drosophila melanogaster with 24 samples.

Results

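Heads of young flies collected around dawn were compared with heads collected around dusk. The comparison used 8 of the 24 RNA-seq libraries of the series: 4 from the hours around lights on, at ZT20 and ZT0 (ZT counts the hours since the lights came on), and 4 from the hours around lights off, at ZT8 and ZT12. They were chosen by age and time of day from the sample labels, without regard to any measured value, and each time point has 2 libraries. All 8 came from pooled heads of 5-day-old mated *w*[1118] females kept in 12 h light and 12 h dark. These flies have white eyes without screening pigment, because their *white* gene is mutant. The remaining young libraries (ZT4 and ZT16) and the 8 libraries of the same hours from 55-day-old females of the same strain were used only where named.

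In the fly clock the transcription factors CLK and CYC activate *per*, *tim*, *vri*, *Pdp1* and *cwo* through the day and early night, PER and TIM proteins then shut CLK and CYC off late at night, and VRI and PDP1 set the opposite rhythm of *Clk*. Clocks of this kind run in brain neurons, in glia and in the photoreceptors, which make up much of a head's tissue. Photoreceptors turn light into a current through rhodopsin, a G protein, phospholipase C and the TRP and TRPL channels, and they signal to the brain with histamine.

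Expression was given as FPKM (fragments scaled to transcript length and to the library's mapped reads) and compared after each library had been divided by its median ratio to the mean library. This scaling matters here because the common scale itself followed the clock time: the log2 scale factors averaged 0.05 in the dawn and -0.07 in the dusk libraries, a difference of 0.12 (exact two-sided permutation P = 0.0286, the smallest that 4 against 4 libraries can give). This pattern was known before the comparison was set up, so the P value gives no independent support for it. The permutation also counted the 2 libraries of a time point as separate units. Without scaling the median log2 difference of all genes was 0.10 in place of -0.00034. No read numbers come with FPKM, so the depth per library is unknown and precision rests on the spread between libraries. Of the summed marker genes of head cell types, those of neurons (562 to 682 at dawn, 649 to 795 at dusk, scaled FPKM), photoreceptors, glia, fat body and muscle overlapped between dawn and dusk. Those of hemocytes did not (47.8 to 56.1 at dawn, 60.2 to 65.4 at dusk), and ovary markers were near 0. Taken singly, each of the 3 hemocyte markers overlapped. Within the photoreceptor sum *ninaE* (mean 10613) was higher at dusk and *Arr2* (mean 3786) higher at dawn, each without overlap, so the sum hides opposite shifts. In whole heads a change in the number of cells of a type and a change of RNA per cell cannot be told apart. The part of these shifts in the results below was not tested.

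Of 9397 genes with a mean of at least 1 scaled FPKM, 274 (2.92%) differed between dawn and dusk (adjusted P value up to 0.05, limma on log2(scaled FPKM + 1), Benjamini-Hochberg). Dawn was higher for 160 of them (1.7% of the genes tested) and dusk for 114 (1.21%), and for each of the 274 the 4 dawn values did not overlap the 4 dusk values. Groups without overlap were not rare in themselves, since 6.95% of all genes tested had every dawn value above every dusk value and 7.54% the reverse. Most differences were moderate: the median log2 difference of the called genes was 0.61 where dawn was higher and -0.63 where dusk was higher, and 27 and 20 genes respectively differed at least 2-fold. A fold change here is on the log2(scaled FPKM + 1) scale, which understates the change of genes at low levels. On the FPKM as deposited, without scaling, 587 genes passed and 511 of them (87.1%, in place of 58.4%) were higher at dawn. Leaving out 1 library gave between 107 calls (without the second ZT8 library) and 237 (without the second ZT12 library), and 85 of the 274 passed in each of these 8 fits.

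The genes higher at dawn had their highest mean of all 6 times of day at ZT20 (80 genes) or ZT0 (69), with 9 at ZT16 and 2 at ZT4. Those higher at dusk peaked at ZT12 (54) or ZT8 (45), with 12 at ZT4 and 3 at ZT16. The libraries at ZT4 and ZT16 did not enter the test. Their means lay on the dawn side of the midpoint between dawn and dusk (log2 scale) at ZT4 for 58 and at ZT16 for 76 of the 160 dawn-high genes. For the 114 dusk-high genes they lay on the dusk side at ZT4 for 83 and at ZT16 for 45. ZT16 was above ZT4 in 56.3% of the dawn-high genes, in 32.5% of the dusk-high genes and in 50.8% of all genes tested.

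Among the 8 core clock genes, *per* and *cwo* were called, both higher at dusk. *per* (FBgn0003068, chromosome X, 2685580 to 2692780, plus strand), which encodes the repressor PERIOD, was measured at 1.98 and 1.88 at ZT20, 1.23 and 1.08 at ZT0, 5.13 and 5.73 at ZT8, and 7.99 and 9.58 at ZT12 (scaled FPKM, first and second library of each time). All 4 dusk values stood well above all 4 dawn values, and the log2 difference of dawn minus dusk was -1.66 ± 0.20 (SE) with an adjusted P of 0.0047. *cwo* (FBgn0259938, chromosome 3R, 10388258 to 10400752, plus strand), a repressor that competes with CLK and CYC at their targets, gave 7.69 and 7.1 at ZT20, 7.99 and 7.74 at ZT0, 14.2 and 15 at ZT8, and 17.2 and 12 at ZT12. Its dawn libraries lay within a narrow band below every dusk library, and the difference was -0.84 ± 0.10 (SE), adjusted P = 0.0048. Both calls held without any single library.

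The other core clock genes moved within the groups as well as between them. *vri* (56.1 and 50.6 at ZT20, 16.2 and 14 at ZT0, 68.5 and 72.8 at ZT8, and 163 and 111 at ZT12), the repressor of *Clk*, had every dusk value above every dawn value, but its level at ZT20 was close to that at ZT8. Its difference of -1.74 ± 0.49 (SE) was not called (adjusted P = 0.10). *tim* gave 101 and 104 at ZT20, 29.3 and 31.5 at ZT0, 93 and 85.7 at ZT8, and 166 and 171 at ZT12, so that the dawn group held both its lowest values, at ZT0, and values above those of ZT8, at ZT20. The groups overlapped and the difference of -1.12 ± 0.47 (SE) was not called (adjusted P = 0.24). ZT0 against ZT12 alone gave -2.44 for *tim* (adjusted P = 0.012) and ZT20 against ZT8 alone 0.20 (adjusted P = 0.25). With a mean for each time point in the fit of the 8 libraries, so that changes within dawn or dusk did not count as error, *tim* (adjusted P = 0.00053) and *vri* (adjusted P = 0.0019) also passed as higher at dusk and *Clk* (adjusted P = 0.044) as higher at dawn.

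*Clk* was at 64.4 and 41.1 at ZT20, 46.2 and 41.6 at ZT0, 29.4 and 32.5 at ZT8, and 23.1 and 15 at ZT12. Among these 8 libraries its 4 highest values were in the 4 dawn libraries, with a difference of 0.95 ± 0.24 (SE) (adjusted P = 0.073). At ZT4, outside the test, *Clk* was at 42.3 and 37.1. Its partner *cyc* ran from 7.49 to 9.15 at dawn and from 5.87 to 7 at dusk, 0.31 ± 0.09 (SE), adjusted P = 0.094. *Pdp1*, an activator of *Clk*, gave -0.42 ± 0.15 (SE) with an adjusted P of 0.18. *cry*, the blue-light receptor of the clock, was at 37.5 and 35 at ZT20, 63.9 and 62.9 at ZT0, 61 and 55.7 at ZT8, and 27.7 and 35.2 at ZT12: high at ZT0 and ZT8 and low at ZT20 and ZT12. Its 2 groups therefore overlapped, the difference was 0.16 ± 0.30 (SE) (adjusted P = 0.79), and without the first ZT12 library the sign turned (-0.04).

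**Figure D1:**
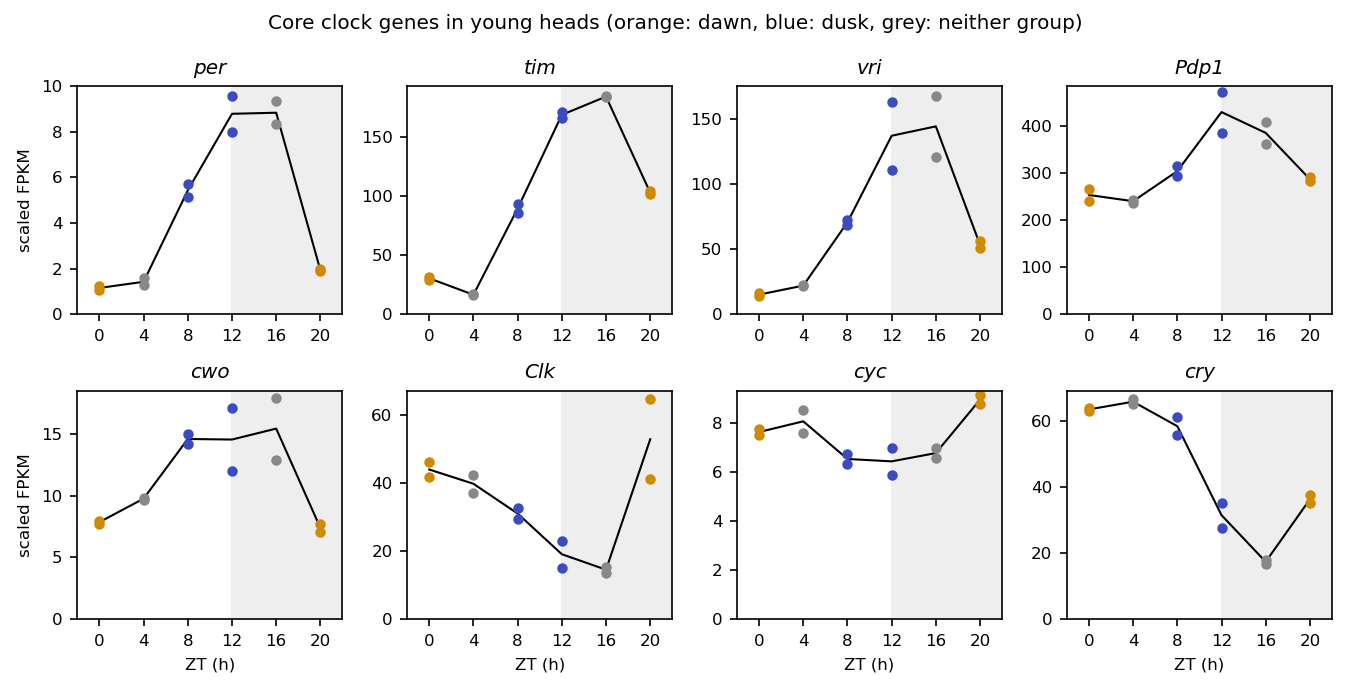
Scaled FPKM (vertical axes) of the 8 core clock genes at 6 times of day (horizontal axes, ZT in hours) in young heads; points are the 2 libraries of each time, lines join their means, orange marks dawn, blue dusk, grey the times in neither group, and shading the dark phase. For *per* all 4 blue points lie above 5 and all 4 orange points below 2, while *tim* at ZT20 (101 and 104) lies above its level at ZT8.

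Around the clock proteins act kinases, phosphatases and degradation factors, of which 17 were tested. None was called as higher at dawn and 3 as higher at dusk, against 1.7% and 1.21% of all genes tested. The median log2 difference was -0.05. *Usp8* (FBgn0038862, chromosome 3R, 21134262 to 21138214, plus strand), which encodes a deubiquitinating enzyme, was measured at 12.5 and 12.7 at ZT20, 9.4 and 9.32 at ZT0, 72.6 and 71.3 at ZT8, and 101 and 76.5 at ZT12. The dusk level was several times that of dawn in both replicates, -2.76 ± 0.14 (SE), adjusted P = 4.0e-05, a 6.78-fold change. Its lowest values of all 6 times were at ZT0, and it was at 17 and 16.4 at ZT4 and 42.1 and 49.4 at ZT16. *tws*, a regulatory subunit of protein phosphatase 2A, ran from 30.0 to 36.5 at dawn and from 44.3 to 63.1 at dusk (-0.70 ± 0.12 (SE), adjusted P = 0.019). *nmo*, a Nemo kinase, gave -0.64 ± 0.13 (SE) with an adjusted P of 0.042. The call of *Usp8* held without any single library, whereas that of *tws* was lost in 5 and that of *nmo* in 6 of 8 such fits (adjusted P up to 0.067 and 0.11).

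Of 19 clock output genes of the head, 2 were called as higher at dawn and 2 as higher at dusk, against 1.7% and 1.21% of all genes. *to* (takeout), which encodes a secreted protein linked to feeding, was at 30.5 and 39 at ZT20, 46.8 and 46.9 at ZT0, 25.8 and 20.7 at ZT8, and 19.2 and 20.5 at ZT12. All dawn values exceeded all dusk values, with a difference of 0.88 ± 0.15 (SE) and an adjusted P of 0.021. The cytochrome P450 gene *Cyp6a21* ran from 5.58 to 7.23 at dawn and from 1.66 to 3.01 at dusk, 1.16 ± 0.13 (SE), adjusted P = 0.0047. *Slob*, whose product binds the potassium channel Slowpoke, was higher at dusk: 62.6 and 57 at ZT20, 67.8 and 64.4 at ZT0, 96 and 92.8 at ZT8, and 108 and 99.6 at ZT12. Its 8 libraries formed tight and separate groups, -0.65 ± 0.08 (SE), adjusted P = 0.0059. The inward rectifier potassium channel gene *Irk1* gave -0.66 ± 0.12 (SE) (adjusted P = 0.030), and a second potassium channel gene, *eag*, went the other way at 0.41 ± 0.09 (SE) (adjusted P = 0.049). Among 13 voltage- and calcium-gated potassium channel genes and their partners, *eag* and *Slob* were the 2 calls. The calls of *to*, *Irk1* and *eag* were lost in 5, 7 and 7 of 8 fits without 1 library (adjusted P up to 0.077, 0.085 and 0.13).

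The largest differences toward dawn included genes named here only by their CG or CR number, and their role is given where known. CG17386 (FBgn0033936, chromosome 2R, 14420324 to 14424764, plus strand), annotated as *Achl* (achilles), was measured at 66.2 and 56.3 at ZT20, 43.9 and 40.5 at ZT0, 1.28 and 1.94 at ZT8, and 2.11 and 1.95 at ZT12. Dawn and dusk lay far apart in both replicates, with means of 51.8 ± 11.8 at dawn and 1.82 ± 0.367 at dusk (SD, n = 4), 4.21 ± 0.17 (SE), adjusted P = 8.8e-06. It was intermediate at ZT4 (9.17 and 7.96) and at ZT16 (28.3 and 34). CG17352 (FBgn0035880, chromosome 3L, 8352355 to 8356296, minus strand), annotated as *Culd* and known for the endocytic traffic of rhodopsin and TRPL in photoreceptors, gave 63.2 and 58.4 at ZT20, 39.9 and 42.9 at ZT0, 15.5 and 15.4 at ZT8, and 10.6 and 13.4 at ZT12, higher at ZT20 than at ZT0 in both replicates, with a difference of 1.81 ± 0.17 (SE) and an adjusted P of 0.0020. CG11891 ran from 51 to 59.2 at dawn and from 9.8 to 22.8 at dusk (1.76 ± 0.25 (SE), adjusted P = 0.011).

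CG44195 (FBgn0265084, chromosome 3L, 7658409 to 7695654, minus strand) reached 179 and 172 at ZT20, 191 and 191 at ZT0, 76.7 and 76 at ZT8, and 43.5 and 42.2 at ZT12. The dawn libraries lay within a band of 172 to 191, well above dusk, 1.66 ± 0.21 (SE), adjusted P = 0.0054. Its exons overlap those of the ankyrin gene *Ank2* on the same strand, so the 2 genes share reads and their levels are uncertain. CG42367, 2.17 ± 0.23 (SE) (adjusted P = 0.0028), the long noncoding RNA CR44301, 1.80 ± 0.23 (SE) (adjusted P = 0.0065), and CG11407, annotated as *Acsx3*, 1.55 ± 0.28 (SE) (adjusted P = 0.027), were also among the 12 largest. Only CG11407 of these 12 lost its call without 1 library, in 6 of 8 fits (adjusted P up to 0.081), and the other 11 kept theirs in every such fit.

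**Figure D2:**
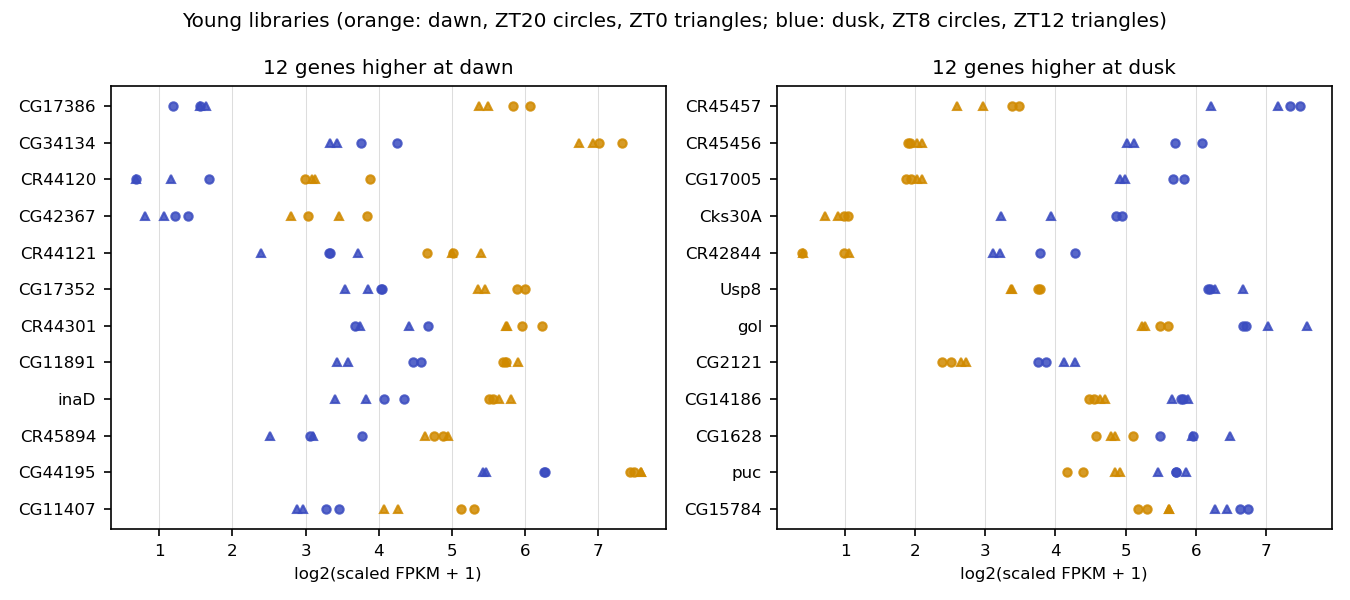
Log2(scaled FPKM + 1) (horizontal axes) of the 12 genes with the largest called difference in each direction (rows) in the 8 young libraries; orange is dawn (ZT20 circles, ZT0 triangles) and blue is dusk (ZT8 circles, ZT12 triangles). Orange and blue do not overlap in any row, which the choice of the genes required.

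Several of these genes are neighbours. On chromosome 2L the noncoding RNAs CR45456 (9325845 to 9326721) and CR45457 (9327039 to 9327553), CG17005 (9327744 to 9330332) and *Cks30A* (9330763 to 9331981) follow one another on the plus strand, and CR42844 (9304437 to 9305007) lies upstream on the minus strand. All 5 were among the 12 largest dusk differences. CR45457 was measured at 10.2 and 9.45 at ZT20, 6.8 and 5.06 at ZT0, 179 and 161 at ZT8, and 143 and 73.4 at ZT12, -3.95 ± 0.30 (SE), adjusted P = 3.9e-04. CG17005 gave 2.66 and 2.85 at ZT20, 3.09 and 3.27 at ZT0, 55.8 and 50.2 at ZT8, and 30.9 and 29.2 at ZT12, -3.37 ± 0.20 (SE), adjusted P = 1.1e-04. *Cks30A*, a subunit of cyclin-dependent kinase complexes, gave 1.06 and 0.98 at ZT20, 0.638 and 0.864 at ZT0, 28 and 29.9 at ZT8, and 14.4 and 8.3 at ZT12, -3.33 ± 0.35 (SE), adjusted P = 0.0028. In all 3 every dusk library lay far above every dawn library, and ZT8 was above ZT12. They were also high at ZT4 (CR45457 120.0 and 107, CG17005 37.4 and 38.8, *Cks30A* 32.2 and 30.5) and low at ZT16 (19.9 and 20.2, 7.97 and 6.36, 2.62 and 4.2). CR45456 and CR42844 had differences of -3.49 and -2.89 (adjusted P = 1.1e-04 and 0.0020).

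A second group of neighbours on chromosome 2L was higher at dawn. CG34134 (FBgn0083970, chromosome 2L, 8190297 to 8190781, minus strand) was measured at 160.0 and 128 at ZT20, 122 and 106 at ZT0, 12.5 and 18 at ZT8, and 9.76 and 9.1 at ZT12. Every dawn value was far above every dusk value, 9.95-fold on this scale, 3.31 ± 0.21 (SE), adjusted P = 1.1e-04. The minus-strand noncoding RNAs CR44120 (8205367 to 8205648), 2.22 ± 0.27 (SE), adjusted P = 0.0048, and CR44121 (8205778 to 8206044), 1.83 ± 0.27 (SE), adjusted P = 0.011, lie between the sugar transporter gene *SLC5A11* (8200465 to 8205132) and CG8419 (8206171 to 8209637). These last 2, named after their values were seen, were also called as higher at dawn (0.53 ± 0.10 (SE) and 1.49 ± 0.10 (SE), adjusted P = 0.030 and 1.8e-04), though *SLC5A11* lost its call in 7 of 8 fits without 1 library (adjusted P up to 0.087). Over all 270 called genes with a position in the annotation, 59 (21.9%) had another called gene within 10 kb, against 10.8% of the genes that were not called. For 48 of the 59 a neighbour changed in the same direction and for 12 in the other, and a gene can count in both. No share expected for unrelated neighbours was computed. Both groups above are among these genes, apart from CR42844, which has no called gene within 10 kb. The exons of some pairs overlap, such as CG44195 with *Ank2* and *cnc* with *Irk1*.

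The antisense RNA CR45894 (FBgn0267554, chromosome 3L, 16353498 to 16353916, plus strand) overlaps *Pdh* on the other strand. *Pdh*, named after its values were seen, encodes the photoreceptor dehydrogenase of retinoid turnover, and the libraries were strand-specific. CR45894 was at 26.1 and 28.6 at ZT20, 29.9 and 23.8 at ZT0, 7.32 and 12.7 at ZT8, and 4.71 and 7.59 at ZT12, 1.70 ± 0.23 (SE), adjusted P = 0.0078. *Pdh* was at 581 and 538 at ZT20, 1080 and 1064 at ZT0, 456 and 489 at ZT8, and 251 and 292 at ZT12, with every dawn value above every dusk value and ZT0 near 2 times ZT20, 1.11 ± 0.31 (SE), not called (adjusted P = 0.098). Whether the authors' counting used strand is not stated in the sources used here. The levels of genes whose exons overlap on opposite strands are therefore uncertain. Among the genes named here these are also *per*, *tim*, *cry*, CG8419, *SLC5A11*, CG1628, *inaD*, *CdsA*, *ninaA*, *Hdc*, *Hr38* and *Rfabg*. They further include *cnc*, *Irk1*, *mRpL28*, *mRpL51*, *RpL24-like*, *se* and *Tim10*. Exons shared with another gene on the same strand, which make levels uncertain in either case, were annotated for *tim*, *cry*, CG11891 (with CG11889), CG1628 (with CG43347) and *Irk1* (with CG46310).

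Toward dusk, beside *Usp8* and the genes of chromosome 2L, stood *gol*, a RING finger protein gene, at 47.6 and 43.9 at ZT20, 37.8 and 36.4 at ZT0, 104 and 101 at ZT8, and 190.4 and 129 at ZT12. It was lowest at ZT0 and highest at ZT12, -1.60 ± 0.20 (SE), adjusted P = 0.0051. CG2121 ran from 4.21 to 5.63 at dawn and from 12.4 to 18.5 at dusk (-1.44 ± 0.13 (SE), adjusted P = 0.0018). CG15784 ran from 35.1 to 48.2 at dawn and from 76.1 to 106 at dusk (-1.09 ± 0.14 (SE), adjusted P = 0.0061), and CG1628 gave -1.14 ± 0.20 (SE) (adjusted P = 0.023), which was lost in 5 of 8 fits without 1 library (adjusted P up to 0.074).

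Genes of vision were called in both directions. Of 21 genes of the phototransduction cascade, 3 were called as higher at dawn and 1 as higher at dusk, against 1.7% and 1.21% of all genes. The list median was 0.12. *inaD* (FBgn0001263, chromosome 2R, 22855688 to 22858794, minus strand), the scaffold that holds phospholipase C, protein kinase C and the TRP channel together, was measured at 46.1 and 44.5 at ZT20, 49.3 and 55.1 at ZT0, 19.4 and 15.9 at ZT8, and 9.59 and 13.2 at ZT12. Dawn exceeded dusk 3.29-fold, with ZT4 (31.9 and 31.9) and ZT16 (26.4 and 22.4) between them, 1.72 ± 0.18 (SE), adjusted P = 0.0028. The exons of *inaD* overlap those of *RpL23* on the other strand.

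*Gbeta76C* (FBgn0004623, chromosome 3L, 19687637 to 19689992, plus strand), the beta subunit of the visual G protein, was at 233 and 211 at ZT20, 259 and 262 at ZT0, 133 and 116 at ZT8, and 113 and 123 at ZT12. Its level was 1.98 times higher at dawn, 0.98 ± 0.10 (SE), adjusted P = 0.0021. *CdsA*, the CDP-diacylglycerol synthase that renews phosphoinositides, ran from 547 to 621 at dawn and from 294 to 415 at dusk, 0.70 ± 0.12 (SE), adjusted P = 0.022, a call lost in 6 of 8 fits without 1 library (adjusted P up to 0.071). The channel gene *trpl* (FBgn0005614, chromosome 2R, 9753697 to 9765518, plus strand) went the other way at 519 and 551 at ZT20, 607 and 563 at ZT0, 945 and 992 at ZT8, and 1389 and 1060 at ZT12. Its 2 highest values were at ZT12, and the difference was -0.95 ± 0.14 (SE), adjusted P = 0.010. For the other channel, *trp*, the difference was 0.11 (adjusted P = 0.65), for the phospholipase C gene *norpA* -0.13 (adjusted P = 0.69) and for the G protein alpha subunit gene *Galphaq* 0.12 (adjusted P = 0.71), the last 2 named after their values were seen. The arrestin gene *Arr2* ran from 4275 to 4591 at dawn and from 2902 to 3325 at dusk, without overlap, but was not called (0.49 ± 0.12 (SE), adjusted P = 0.065).

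None of the 7 rhodopsin genes was called, and their median difference was -0.27. *ninaE*, which encodes Rh1 of the outer photoreceptors, was at 8912 and 9675 at ZT20, 9733 and 10183 at ZT0, 12189 and 10841 at ZT8, and 10828 and 12547 at ZT12. Every dusk value was above every dawn value by a small margin, -0.27 ± 0.15 (SE), adjusted P = 0.34. *Rh5* (-0.27 ± 0.09 (SE), adjusted P = 0.16), *Rh6* (-0.46 ± 0.11 (SE), adjusted P = 0.057) and *Rh7* (-0.40 ± 0.13 (SE), adjusted P = 0.15) had the same pattern of non-overlapping groups without a call. Such groups with dusk higher were found in 7.54% of all genes tested.

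Of 10 genes of chromophore supply and rhodopsin maturation, 2 were called, both as higher at dawn, and the median was 0.29. The difference was positive in 8 of the 10 and negative in 2, the lowest at -0.79 and not called. Of all genes tested 1.7% were called as higher at dawn and 1.21% at dusk. *ninaA*, a cyclophilin that chaperones Rh1, was at 109 and 101 at ZT20, 84.9 and 79.5 at ZT0, 43.6 and 41.1 at ZT8, and 49.8 and 53.8 at ZT12. It was highest at ZT20 and about 2-fold lower at dusk, 0.97 ± 0.13 (SE), adjusted P = 0.0066. The retinol dehydrogenase gene *rdhB* was at 125 and 119 at ZT20, 111 and 101 at ZT0, 63.5 and 64.2 at ZT8, and 64.2 and 68 at ZT12, with the 4 dusk libraries within 63.5 to 68, 0.80 ± 0.08 (SE), adjusted P = 0.0028. Of 7 genes of rhabdomere structure, *prom* (prominin) was called as higher at dawn (0.64 ± 0.13 (SE), adjusted P = 0.042) and the polarity gene *crb* as higher at dusk (-0.44 ± 0.09 (SE), adjusted P = 0.035), each lost in 7 of 8 fits without 1 library (adjusted P up to 0.12 and 0.11).

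Of 8 genes of histamine transmission, 3 were called as higher at dawn and 1 as higher at dusk, against 1.7% and 1.21% of all genes. *Hdc*, the histidine decarboxylase that makes histamine, was at 13.1 and 14.9 at ZT20, 16 and 14.7 at ZT0, 8.62 and 6.75 at ZT8, and 6.95 and 7.64 at ZT12. Dawn was above dusk in every library, 0.89 ± 0.09 (SE), adjusted P = 0.0027. *t* (tan), which frees histamine from its beta-alanyl conjugate carcinine, was at 117 and 113 at ZT20, 159.6 and 155 at ZT0, 63.5 and 62.5 at ZT8, and 36.2 and 36.4 at ZT12, highest at ZT0 and lowest at ZT12, 1.47 ± 0.22 (SE), adjusted P = 0.013. *ort*, the histamine-gated chloride channel of the receiving neurons, was at 11.6 and 10.8 at ZT20, 13.1 and 12.5 at ZT0, 6.64 and 7.73 at ZT8, and 7.9 and 7.81 at ZT12.

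The dusk values of *ort* were within 6.64 to 7.9 and the dawn values above 10, 0.61 ± 0.08 (SE), adjusted P = 0.0088. Its ZT16 values (11.5 and 12.4) were like those of dawn and its ZT4 values (7.2 and 7.21) like those of dusk. CG9317, the carcinine transporter that returns carcinine to the photoreceptor, was higher at dusk at 31.8 and 29.7 at ZT20, 32 and 32.5 at ZT0, 42.5 and 44.3 at ZT8, and 47.7 and 44.7 at ZT12, -0.49 ± 0.07 (SE), adjusted P = 0.0078. These 4 calls, and those of *inaD*, *Gbeta76C*, *trpl*, *ninaA* and *rdhB*, held without any single library.

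**Figure D3:**
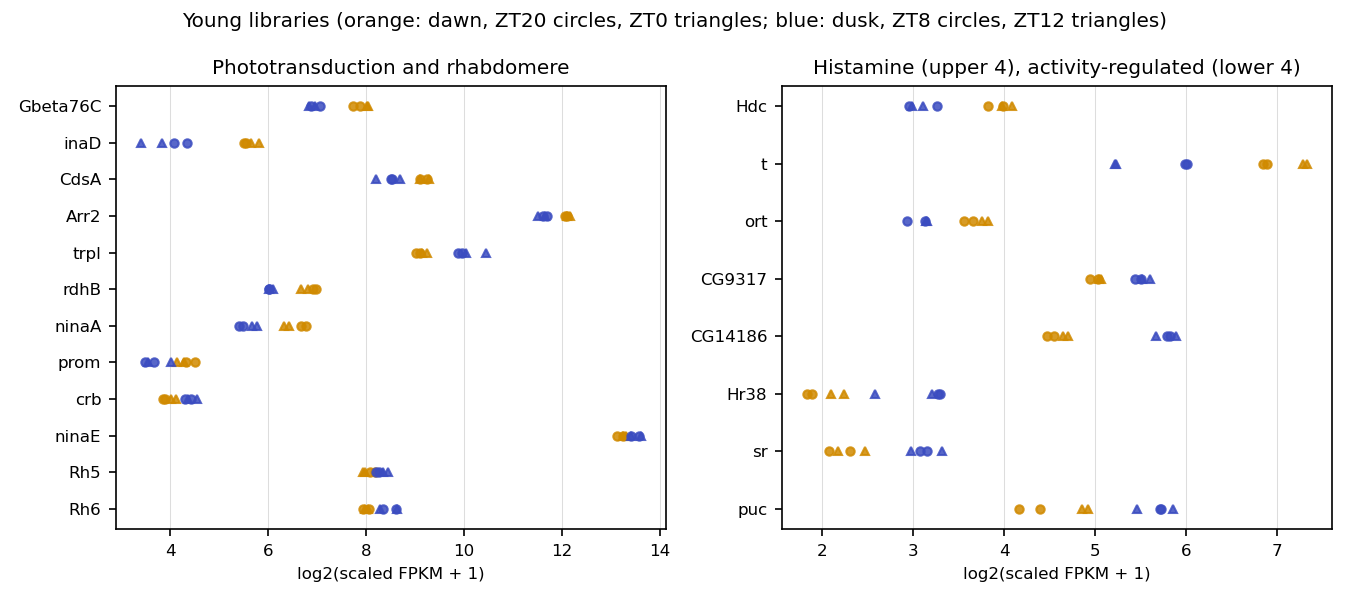
Log2(scaled FPKM + 1) (horizontal axes) of genes of phototransduction, the rhabdomere and rhodopsin (left), and of histamine transmission and neuronal activity (right), in the 8 young libraries; orange is dawn (ZT20 circles, ZT0 triangles) and blue is dusk (ZT8 circles, ZT12 triangles). *inaD*, *Gbeta76C*, *Hdc*, *t* and *ort* have dawn to the right, *trpl*, CG9317 and all 4 activity-regulated genes have dusk to the right.

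Activity-regulated genes are those that neurons switch on after firing. Of 10 tested, 4 were called, all as higher at dusk, against 1.21% of all genes. All 10 differences were negative with a median of -0.38, and on the FPKM as deposited 9 of 10 were. CG14186 (FBgn0036935, chromosome 3L, 20098084 to 20103827, minus strand) was at 22.3 and 21.2 at ZT20, 25.1 and 23.9 at ZT0, 55.6 and 54.5 at ZT8, and 58.4 and 49.8 at ZT12, -1.20 ± 0.08 (SE), adjusted P = 1.7e-04. *sr* (stripe), an early growth response factor, was at 3.92 and 3.22 at ZT20, 4.54 and 3.51 at ZT0, 7.91 and 7.44 at ZT8, and 8.99 and 6.88 at ZT12, -0.88 ± 0.11 (SE), adjusted P = 0.0053. In both genes every dusk library lay above every dawn library. The means at dawn and dusk were 23.1 and 54.6 for CG14186 and 3.80 and 7.81 for *sr*.

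*Hr38*, a nuclear receptor, was at 2.69 and 2.56 at ZT20, 3.71 and 3.29 at ZT0, 8.84 and 8.64 at ZT8, and 8.26 and 4.99 at ZT12. The second ZT12 library stood below the other dusk libraries but above all of dawn, -1.08 ± 0.17 (SE), adjusted P = 0.016. *puc*, the phosphatase that restrains JNK signalling, gave 16.9 and 20.1 at ZT20, 29.3 and 27.9 at ZT0, 51.6 and 51.8 at ZT8, and 56.8 and 43 at ZT12, -1.11 ± 0.18 (SE), adjusted P = 0.015. The calls of CG14186 and *sr* held without any single library, and those of *Hr38* and *puc* were lost in 4 and 3 of the 8 fits (adjusted P up to 0.061 and 0.059). Of 14 genes of presynaptic release none was called, 13 had a negative difference and the median was -0.15, though on the FPKM as deposited 9 were negative (median -0.03). The part of the summed neuron markers, whose ranges at dawn and dusk are given above, was not tested.

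Mitochondrial ribosomal proteins build the ribosomes that translate the messages of the mitochondrial genome. Of 72 tested, 68 had a positive difference with a median of 0.34, and 6 (8.33%) were called, all as higher at dawn, against 1.7% of all genes. *mRpL28* was at 15.5 and 15.4 at ZT20, 13.5 and 15.6 at ZT0, 10.3 and 10.8 at ZT8, and 11.3 and 10.9 at ZT12, 0.44 ± 0.07 (SE), adjusted P = 0.015. *mRpS10* (0.55, adjusted P = 0.019), *mRpS17* (0.57, adjusted P = 0.041) and *mRpL51* (0.77, adjusted P = 0.042) were further examples, and each of these 4 calls was lost in 4 or more of 8 fits without 1 library (adjusted P up to 0.12). With each library divided by its sum of FPKM 67 of 72 were positive and 1 was called, and on the FPKM as deposited 72 were positive and 19 called.

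Of 85 cytosolic ribosomal proteins 69 were positive with a median of 0.12, and 1, *RpL24-like*, was called (0.60 ± 0.11 (SE), adjusted P = 0.023, lost in 5 of 8 fits without 1 library, adjusted P up to 0.081). Of all genes tested 1.7% were called as higher at dawn. Without the first ZT12 library 48 of 85 were positive and the median was 0.02. ZT0 against ZT12 alone gave 77 positive of the 85, with a median of 0.33. ZT20 against ZT8 alone gave 33 positive and 52 negative, with a median of -0.04, so the shift was not shared by both time pairs. The difference also moved with transcript length: with the genes split into 4 equal classes by exon length, the median log2 difference was 0.09 in the shortest class (62 to 1206 bases), 0.04 and -0.01 in the next classes and -0.08 in the longest (from 3556 bases). The shortest class held 54 calls higher at dawn and 21 higher at dusk, the longest 24 and 51, and the part of length in the results was not tested.

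**Figure D4:**
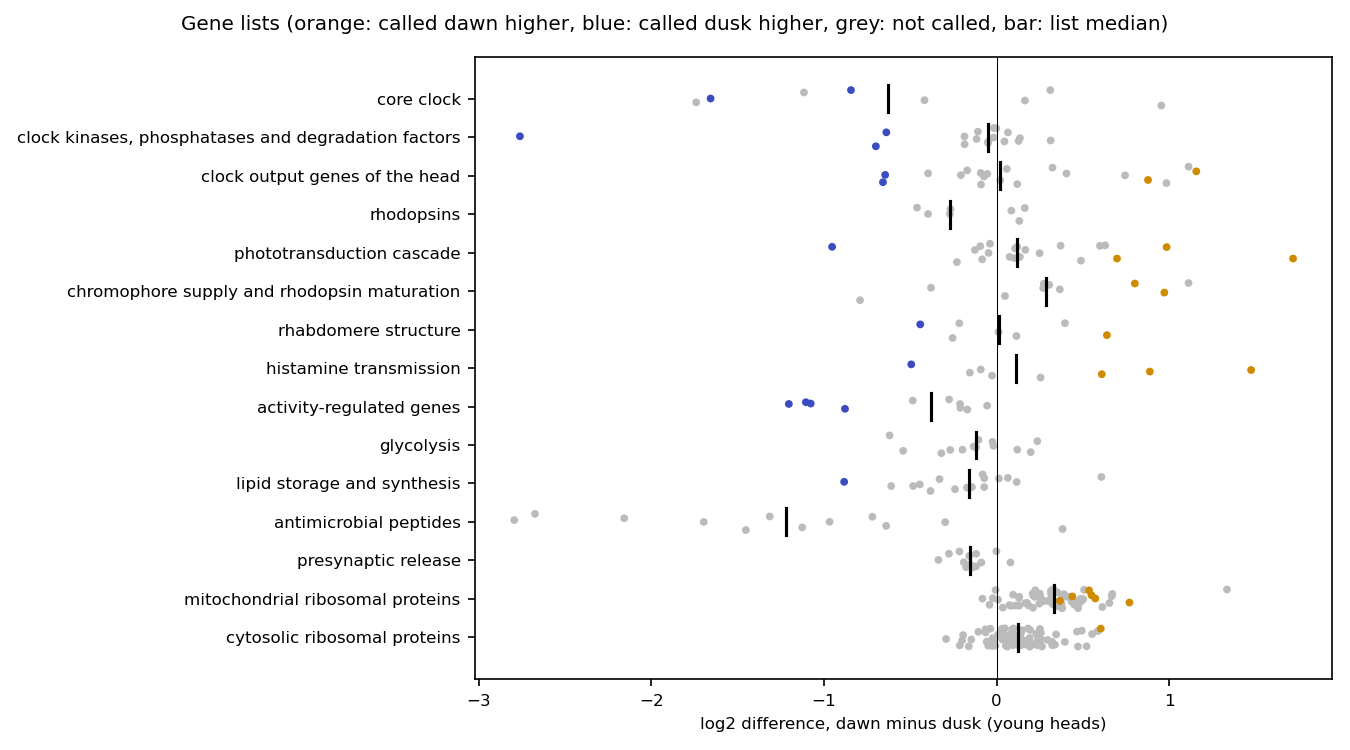
Log2 difference of dawn minus dusk (horizontal axis) of every tested member of 15 gene lists (rows) in young heads; orange points were called as higher at dawn, blue as higher at dusk, grey were not called, and black bars mark list medians. All 10 activity-regulated genes lie left of 0 and 68 of 72 mitochondrial ribosomal proteins right of it.

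Genes of metabolism showed few calls, where 2.92% of all genes tested were called. Of 13 glycolytic genes none was called and 10 were negative, with a median of -0.12, but on the FPKM as deposited 6 were negative and the median was 0.0013. *Pgi*, glucose-6-phosphate isomerase, was at 264 and 328 at ZT20, 349 and 357 at ZT0, 557 and 622 at ZT8, and 409.8 and 426 at ZT12, highest at ZT8 (-0.62 ± 0.16 (SE), adjusted P = 0.085), and *Gapdh2* gave -0.54 ± 0.14 (SE) (adjusted P = 0.081). With a mean for each time point both passed (adjusted P = 0.026 and 0.033). Of 16 genes of lipid storage and synthesis, *FASN1*, fatty acid synthase, was called as higher at dusk at 163 and 179 at ZT20, 216 and 229 at ZT0, 452 and 404 at ZT8, and 264 and 351 at ZT12. The level followed ZT8 above ZT12 above dawn, -0.88 ± 0.18 (SE), adjusted P = 0.042.

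*Rfabg*, which encodes the apolipoprotein of the circulating lipoprotein lipophorin, ran from 1228 to 1474 at dawn and from 1999 to 2187 at dusk, -0.63 ± 0.11 (SE), adjusted P = 0.020. The calls of *FASN1* and *Rfabg* were lost in 7 and 4 of 8 fits without 1 library (adjusted P up to 0.12 and 0.074), and summed fat body markers overlapped between the groups. *cnc*, the NRF2 homolog that controls antioxidant genes, was the 1 call among 17 genes of oxidative defence (-0.58 ± 0.10 (SE), adjusted P = 0.021, lost in 3 of 8 fits, adjusted P up to 0.076). Its exons overlap those of *Irk1*, called in the same direction, on the other strand. The enzymes of the list were not called.

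Of 58 cytochrome P450 genes 3 were called, *Cyp6a21* and *Cyp4c3* (0.59 ± 0.10 (SE), adjusted P = 0.019) as higher at dawn and *Cyp6w1* (-0.53 ± 0.10 (SE), adjusted P = 0.032) as higher at dusk. The shares of all genes tested were 1.7% for dawn and 1.21% for dusk. Of 9 glucuronosyl transferases *Ugt86De* was called as higher at dawn (1.24 ± 0.15 (SE), adjusted P = 0.0047). Its level was low, with means of 2.33 at dawn and 0.406 at dusk (scaled FPKM). Among 20 cuticle proteins *Cpr72Ea* (1.73 ± 0.29 (SE), adjusted P = 0.019) rose at dawn and *Cpr64Ac* (-1.14 ± 0.19 (SE), adjusted P = 0.019) at dusk, each from levels below 1 scaled FPKM in the lower group. The calls of *Cyp4c3*, *Cyp6w1*, *Cpr72Ea* and *Cpr64Ac* were lost in 3, 6, 3 and 4 of 8 fits without 1 library (adjusted P up to 0.063, 0.10, 0.063 and 0.059).

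Antimicrobial peptide genes had a median difference of -1.22 over 12 tested members but none was called. *Mtk* (metchnikowin) was at 4.63 and 4.3 at ZT20, 27.1 and 4.47 at ZT0, 29.1 and 299.6 at ZT8, and 31.1 and 35.6 at ZT12, -2.79 ± 0.83 (SE), adjusted P = 0.11. *Dpt* (diptericin) was at 1.69 and 1.41 at ZT20, 8.02 and 2.28 at ZT0, 8.14 and 301 at ZT8, and 7.59 and 12.5 at ZT12, -2.67 ± 1.09 (SE), adjusted P = 0.22. The second ZT8 library held the highest value of both genes by far, and without it the median of the 12 genes was -0.16, with 5 positive and 7 negative. No gene was called among the small heat shock proteins (8 tested), the constitutive chaperones (14), insulin and TOR signalling (20), neuropeptides (21), the proteasome (35), the vacuolar proton pump (20), autophagy (19), nicotinic receptors (10), glutathione S-transferases (28), odorant binding proteins (25), the *dpr* and *DIP* cell surface proteins (29), sugar storage and transport (9), Turandot genes (5), peptidoglycan recognition proteins (9), inducible Hsp70 (1) and the mitochondrial genome (21). Among 12 genes of monoamine synthesis and transport *t* was the 1 call, and among 7 yolk and secreted fat body genes *to* and *Rfabg* were called. The share of all genes tested that were called was 2.92%.

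The same hours were compared in old heads. There 466 of 9613 genes were called, 226 as higher at dawn and 240 at dusk, and 138 genes were called at both ages (50.4% of the young calls, 29.6% of the old), all in the same direction. Of the 274 young calls, 265 had the same sign in old heads. Whether the ages differed was tested as an interaction term over 9556 genes, and none (0%) passed in limma. At an unadjusted P of at most 0.05 there were 451, among them 75 of the young calls. With a mean for each time point in each age 17 genes passed, 6 of them young calls, *ort*, *Usp8*, *Slob* and CG17005 included.

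*ort* was among the genes nearest to the threshold, with log2 differences of 0.61 in young and -0.25 in old heads (interaction adjusted P = 0.091). *Usp8* had -2.76 and -1.80 (adjusted P = 0.14), CG4962 -0.99 and 0.02 (adjusted P = 0.14, named after its values were seen), *Hr38* -1.08 and -2.07 (adjusted P = 0.32) and *Slob* -0.65 and -0.14 (adjusted P = 0.52). For *per* they were -1.66 and -1.97, for *inaD* 1.72 and 1.48, and for CG17386 4.21 and 3.57. Each age was scaled within its own table, so levels were not compared between the ages.

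**Figure D5:**
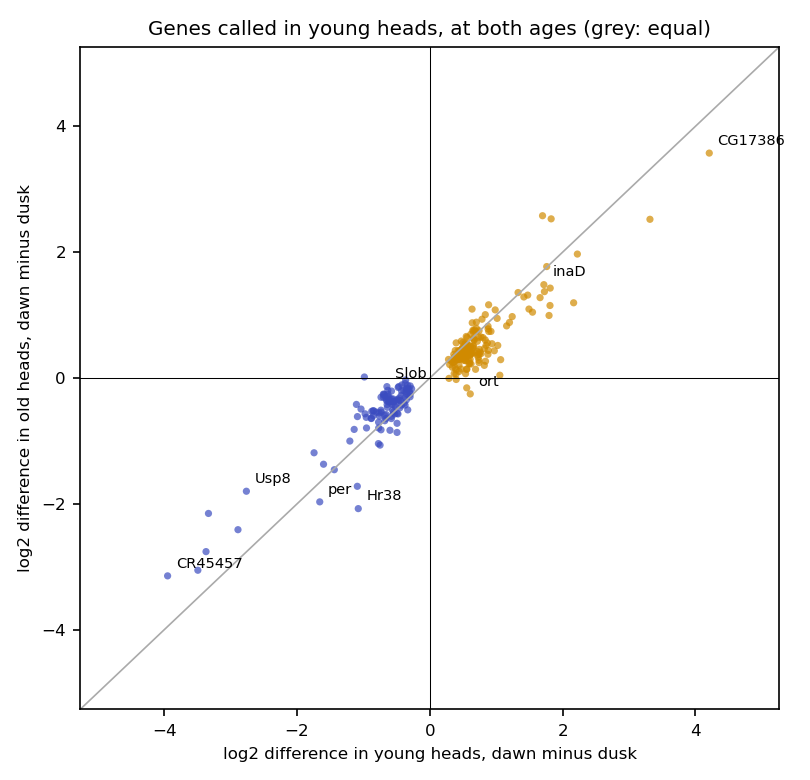
Log2 difference of dawn minus dusk in old heads (vertical axis) against young heads (horizontal axis) for 268 genes called in young heads and tested at both ages; 4 short noncoding RNAs are left out, orange was higher at dawn and blue at dusk in young heads, and the grey line marks equal differences. The choice of genes used the horizontal axis; *ort* lies below 0 on the vertical axis and *Usp8* nearer to 0 than in young heads.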

How the data were processed

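RNA of 24 samples of pooled fly heads was poly(A)-selected and sequenced from strand-specific libraries. The authors trimmed the reads, aligned them with TopHat2 to the dm6 genome (BDGP6) and deposited FPKM values per gene from Cuffdiff in 1 table per age (17637 genes). How Cuffdiff scaled the libraries against each other is not given in the sources used here. The tables also hold the authors' rhythm statistics (P values, phases, periods), which were not used. Columns are named by hour. Hours 0 to 20 were taken as replicate 1 and 24 to 44 as replicate 2, after the description of 2 daily cycles.

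Pre-microRNA hairpins (237) were left out. Libraries were scaled by the median of ratios over 9115 genes. Dawn against dusk was tested with limma 3.58.1 in R 4.3.3 (2 groups, eBayes with trend) on log2(scaled FPKM + 1), in genes with a mean of at least 1 scaled FPKM, and the change with age by an interaction term over 16 libraries. P values were adjusted by Benjamini-Hochberg over all genes tested. The replicates are separate collections, and the P values measure the spread between these libraries only.

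Genes named are the core clock genes, the 12 called genes with the largest difference in each direction (mean of at least 5 scaled FPKM, groups not overlapping, no short noncoding RNA), and up to 4 members of each list with the smallest adjusted P. Others are said to be named after their values were seen. The members and lists were chosen with earlier results of these data known. Positions are from the BDGP6 annotation, which held 9236 (98.3%) of the genes tested. Alternatives were the scaling, the pseudocount (0.1), the minimum level, the model terms, the threshold, single time pairs and leaving out replicates or libraries. Figures were drawn with matplotlib 3.10.9.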

Additional observations from a re-analysis of the deposited data

Results flagged for a closer look

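Among the genes named, 176 groups of 4 libraries were searched for 1 library far from the other 3 (Dixon's test at its 95% level, which flags about 1 group in 20 by chance), and 11 were found. In the second ZT8 library the antimicrobial peptide genes *Mtk* (299.6 scaled FPKM, other dusk libraries 29.1 to 35.6) and *Dpt* (301, others 7.59 to 12.5) stood high, as did *Cyp4c3* (2.64, others 1.99 to 2.03) and *Cpr72Ea* (0.253, others 0.0551 to 0.0563). *Mtk* was also apart in the first ZT0 library (27.1, other dawn libraries 4.30 to 4.63), where *mRpL28* was low (13.5, others 15.4 to 15.6). In the first ZT20 library CR44120 (13.8, others 6.93 to 7.74), *mRpL51* (13.1, others 10.5 to 10.8) and *ND-30* (76.5, others 56.7 to 59.1) were high. *ort* was low in the first ZT8 library (6.64, others 7.73 to 7.90) and *Hr38* in the second ZT12 library (4.99, others 8.26 to 8.84). With these libraries included, dawn and dusk overlapped for *Dpt* and did not overlap for the other genes named here.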

How the results depend on the processing

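The 274 calls (160 higher at dawn, 114 at dusk) became 587 (511 and 76) on the FPKM as deposited, 144 (76 and 68) with each library divided by its sum of FPKM, 745 (398 and 347) with time point as a factor over all 12 young libraries, and 67 (43 and 24) at an adjusted P of at most 0.01. ZT0 against ZT12 alone gave 21 (12 and 9) and ZT20 against ZT8 alone 36 (20 and 16). Leaving out a library or a whole replicate gave 10 to 237 calls, 6 to 142 of them higher at dawn and 1 to 97 at dusk, and the lowest, without replicate 1 (11) or 2 (10), rest on 1 library a time point. The other alternatives stayed within 1.5 times of each count. Same-numbered libraries deviated together in part at ZT20 and ZT12 (correlation of 0.34), and little at the other pairs of time points (-0.14 to 0.05). The replicate block gave 186 calls (107 and 79), 181 of them among the 274. The age interaction gave 17 calls in place of 0 with time point as a factor, 1 and 2 without replicate 1 and 2, and 0 under the replicate block. The difference of the scale factors was 0.12 without either replicate, where 2 against 2 libraries cannot give a P below 0.33. Of the values of 88 named genes, 3 changed sign: *tim* in ZT20 against ZT8 (0.20) and *cry* there (-0.67) and without the first ZT12 library (-0.039). Over all alternatives, 1304 of their values kept direction and call, 511 lost the call and 22 gained one. The cause was not tested, beyond the smaller number of libraries in those that leave some out. The depth is unknown, so what depth limits cannot be given.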

Other observations

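A few genes with known roles in the eye were picked from those called as higher at dawn after their values were seen, so their direction follows from the choice and says nothing of eye genes as a group. *boss*, the ligand by which the R8 photoreceptor instructs its neighbour R7, was at 72.8 and 68 at ZT20, 79.1 and 78.3 at ZT0, 51.6 and 50.6 at ZT8, and 47.9 and 43.2 at ZT12 (0.62 ± 0.08 (SE), adjusted P = 0.0088), with all dawn above all dusk libraries and a call that held without any single library. *Cpn* (calphotin), a calcium-binding protein of photoreceptors, had means of 111 ± 13 at dawn and 70.3 ± 5.17 at dusk (SD, n = 4; 0.65 ± 0.10 (SE), adjusted P = 0.015, lost only without the second ZT8 library at 0.056). *Xport*, a chaperone of TRP and Rh1 whose exons overlap *Xport-B* on the same strand, gave 0.84 ± 0.15 (SE) (adjusted P = 0.023, lost in 6 of 8 fits without 1 library, up to 0.082), and *Mppe*, a metallophosphoesterase of rhodopsin maturation, 0.64 ± 0.10 (SE) (adjusted P = 0.018, lost in 4, up to 0.060). The eye pigment gene *se* (sepia) was called too (0.57 ± 0.10 (SE), adjusted P = 0.019, lost in 4, up to 0.061).

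Nuclear genes of the respiratory chain and ATP synthase, a list added after the calls were seen, had a positive difference in 54 of 64 tested members, with a median of 0.19 and 3 calls, all higher at dawn: *ND-30* (0.56, adjusted P = 0.050), *ND-B17.2* (0.39, adjusted P = 0.047) and *ATPsynCF6* (0.43, adjusted P = 0.047). Each lost its call in every fit without 1 library (adjusted P up to 0.12, 0.12 and 0.12). The share of all genes tested that were called as higher at dawn was 1.7%. Of 10 genes of mitochondrial import 9 were positive (median 0.30), and *Tim10* and *Tim9a* were called (0.52 and 0.53, adjusted P = 0.036 and 0.028, lost in 7 and 6 of 8 fits without 1 library, up to 0.10 and 0.084). As many of these genes are short, the medians by exon length given above stand beside them, and the part of length was not tested. The exons of *Tim10* overlap those of CG42497 on the same strand.

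Of the 274 calls, 4 are snoRNAs, some listed at exactly 0 in whole groups of libraries. A poly(A)-selected library measures such short RNAs poorly and a listed 0 can be a failed estimate, so no fold change is given for them.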
